A study of Rattus norvegicus with 24 samples.

Results

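Expression of 10 genes of the dopamine neuron was measured in rat neural stem cells and in cells differentiated from them without and with vitamin C. The genes were Th, Ddc and Gch1 of dopamine synthesis, the transporters Slc18a2 and Slc6a3, the lineage factors Nr4a2 and Foxa2, the receptor kinase Ret, the aldehyde dehydrogenase Aldh1a1 and the dopamine receptor Drd2. They were taken from a list of dopamine synthesis, transport and lineage genes and matched by symbol to the deposited table, where 10 of 10 had a row among 12187 genes. All cells came from Sprague-Dawley rats. The groups were neural stem cells (labelled D0), differentiated neural stem cells (VC-) and differentiated neural stem cells with vitamin C (VC+), with 2 RNA-seq libraries in each. The differentiated libraries of replicate 1 carry the day label 4 and those of replicate 2 the day label 5. The labels give no dose of vitamin C, no brain region or age of origin, and nothing on whether the replicates come from different cultures or animals; p-values here reflect no more than the scatter of these libraries. The other 18 samples of the series, of methylation, hydroxymethylation and nuclear factor I binding assays and their inputs, were not analysed here.

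Dopamine is made in the cytosol from tyrosine. Tyrosine hydroxylase, encoded by Th, makes L-DOPA in the rate-limiting step and needs iron and the cofactor tetrahydrobiopterin, whose own synthesis starts with the GTP cyclohydrolase encoded by Gch1. The decarboxylase encoded by Ddc turns L-DOPA into dopamine, Slc18a2 loads it into vesicles, and Slc6a3, the plasma membrane dopamine transporter, takes it back up after release. In midbrain neurons this set is switched on under the nuclear receptor Nr4a2 and the forkhead factor Foxa2, while noradrenergic neurons, some olfactory bulb interneurons and adrenal cells carry Th without the full midbrain set. Vitamin C serves iron-dependent dioxygenases and also dopamine beta-hydroxylase, which converts dopamine to noradrenaline.

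The promoters of Th and Slc18a2 are shown because both hold a complete cyclic AMP response element and because these genes had the highest differences of the 10 between cells with and without vitamin C. Each run is the 250 bases before the start site, 5′ to 3′ on the gene's own strand, from RefSeq on the GRCr8 build. Capitals mark the letters TGACG, the core of that element, and the complete TGACGTCA.
Th promoter, chr1:207508219-207508468, minus strand: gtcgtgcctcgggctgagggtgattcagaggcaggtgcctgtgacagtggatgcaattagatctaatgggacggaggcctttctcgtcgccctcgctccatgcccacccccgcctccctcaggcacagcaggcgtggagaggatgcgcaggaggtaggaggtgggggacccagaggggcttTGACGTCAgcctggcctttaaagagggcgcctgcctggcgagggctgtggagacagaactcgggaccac
Slc18a2 promoter, chr1:268399771-268400020, plus strand: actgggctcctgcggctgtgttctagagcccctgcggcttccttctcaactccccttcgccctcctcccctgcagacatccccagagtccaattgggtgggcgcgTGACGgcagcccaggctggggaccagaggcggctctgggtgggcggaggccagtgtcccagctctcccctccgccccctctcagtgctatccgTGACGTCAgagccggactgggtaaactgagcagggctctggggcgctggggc
The complete element begins 69 bases before the start of Th and 52 bases before that of Slc18a2. Slc18a2 has a separate TGACG beginning 145 bases before the start.

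Promoters were matched for 10 of the 10 genes in 12 windows, since Ddc has 3, and motifs were sought on both strands in 300 bases (250 before and 50 after the start). TGACGTCA was found in 2 of the 10 genes and in 1.83% of all 33469 promoters. It was found in 3.22% of the 9423 promoters of genes tested here. Its core TGACG, which lies inside every TGACGTCA, was found in 5 of the 10 genes (Th, Slc6a3, Slc18a2, Nr4a2, Gch1) and in 21.2% of all promoters. The Nr4a motif AAAGGTCA occurred in 1 gene, in a window of Ddc, against 1.43% of all promoters. The nuclear factor I core TTGGCA occurred in 2 genes, Ddc and Ret, against 14.0% of all promoters. The hypoxia motif ACGTG, which 19.3% of all promoters hold, was in 0 of the 10 genes. The forkhead motif TGTTTNC was in 1 gene, in a window of Ddc, against 21.1% of all promoters. The AP-1 motif TGANTCA was in Th and Ddc against 7.33%, TATAAA in Ddc and Foxa2 against 14.2%, and CANNTG in 8 genes against 72.1%. Among the promoters of genes tested here the shares were 31.4% for TGACG, 1.01% for AAAGGTCA, 11% for TTGGCA, 24.8% for ACGTG, 14.8% for TGTTTNC, 4.88% for TGANTCA, 6.61% for TATAAA and 62.4% for CANNTG. The Th window was 65.3% GC with 15 CpG and that of Slc18a2 68.3% GC with 18 CpG, against medians of 51.7% and 7 over all promoters. These matches describe letters only, and no binding at them was measured here.

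Values are CPM, reads of a gene divided by the total of its library and multiplied by a constant, and are not scaled by gene length, so levels are compared between libraries and not between genes. Where 3 values of a replicate follow each other, they are those of the stem cells, of the cells without and of the cells with vitamin C, in that order. Whole reads were recovered from the CPM values. The listed genes held 4811094 to 6641721 recovered reads per library in replicate 1 and 10299321 to 13184601 in replicate 2. The library totals used for scaling were larger, 7929519 to 10451204 in replicate 1 and 15220934 to 21356945 in replicate 2. Against those totals 3 reads, the most that a count of 0 allows, stood for 0.378 CPM in the shallowest library and 0.140 CPM in the deepest. The stem cell genes Sox2 (332 to 455 CPM) and Nes (32.5 to 159 CPM) were detected in all 6 libraries. The replicates differed in other cell markers. Summed over 12 microglia and macrophage genes, replicate 1 held 4.41 to 4.65 CPM, with 3 to 9 of the 12 at 0, and replicate 2 held 283 to 748 CPM with none at 0. Summed over 12 fibroblast and meningeal genes, replicate 1 held 99.4 to 237 CPM and replicate 2 held 3710 to 9299 CPM. Oligodendrocyte lineage genes, 13 in number, summed to 2326 to 13366 CPM in replicate 1 and to 831 to 1219 CPM in replicate 2. In bulk RNA, fewer cells of a type and less RNA per cell cannot be told apart.

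The dopamine genes followed the replicate too. Of the 10, 9 were higher in replicate 2 than in replicate 1 among the stem cells, 8 among cells lacking vitamin C and 9 among those given it, against 51.0%, 48.6% and 49.7% of all genes. Their median log2 differences between replicates were 0.97, 1.65 and 1.84, against 0.02, -0.03 and -0.01 over all genes. The exceptions were Drd2 in the stem cells, Ret and Drd2 without vitamin C, and Ret with it. The part of other cell types and of the day label in this difference was not tested.

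**Figure D1:**
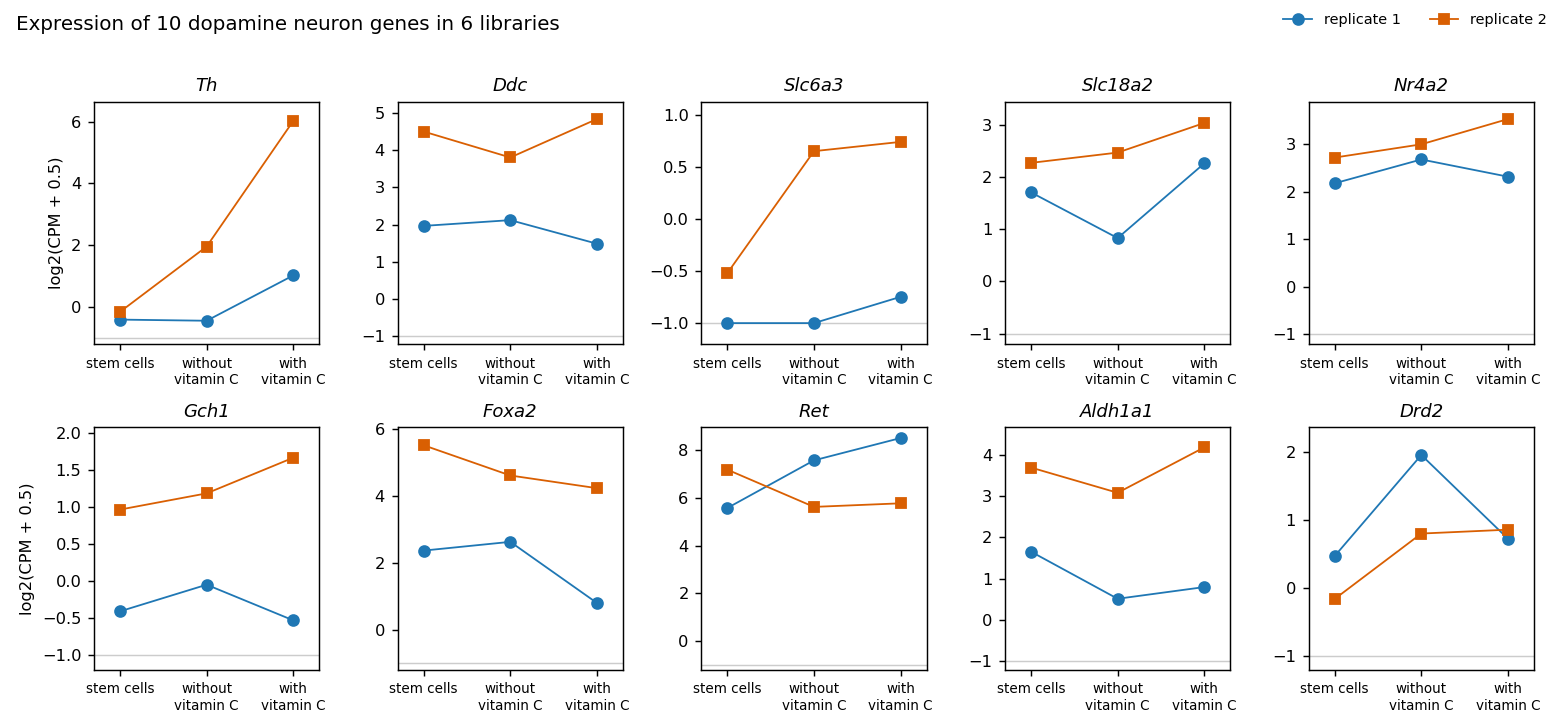
Expression of each of the 10 genes as log2(CPM + 0.5), with 1 point per library (stem cells, then differentiated without, then with vitamin C) and a line joining the libraries of a replicate; the grey line marks 0 CPM, and each panel has its own scale. Th is highest with vitamin C in both replicates, and for most genes replicate 2 lies above replicate 1.

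Th, the enzyme that commits tyrosine to dopamine, was near the detection limit in stem cells and highest with vitamin C in both replicates. In replicate 1 it stood at 0.252 CPM (2 reads) in stem cells, 0.233 CPM (2 reads) without vitamin C and 1.53 CPM (16 reads) with it. In replicate 2 it stood at 0.394 CPM (6 reads), 3.38 CPM (63 reads) and 64.8 CPM (1384 reads). Both vitamin C libraries lay above both stem cell libraries, but the group with vitamin C overlapped that without, since 1.53 CPM in replicate 1 lies under 3.38 CPM in replicate 2. The value of 64.8 CPM in 1 library therefore carries most of the level.

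On the log2(CPM + 0.5) scale, which understates changes of low genes, Th was higher with than without vitamin C by 1.47 in replicate 1 and 4.07 in replicate 2. The replicate 2 difference ranked 1 from the highest of 11823 genes tested and the replicate 1 difference ranked 169. The limma difference was 2.77 (SE 1.82), ranked 3 of 11823, with an adjusted p of 1.000 over 2 libraries a group. Leaving out 1 library in turn moved this difference between 0.27 and 5.27. Of all genes tested, 0.871% were at least 2-fold higher with vitamin C in both replicates, and Th was the one of the 10 among them. For genes at least 2-fold lower in both the share was 0.211%, with 0 of the 10.

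Against stem cells, Th with vitamin C was at 6.07 times the level in replicate 1 (exact 95% counting interval 1.43 to 54.4) and at 164 times the level in replicate 2 (75.3 to 449). The limma difference was 3.81 (SE 1.82, adjusted p 1.000), ranked 20 of 11823, and moved between 1.31 and 6.32 when a library was left out. DESeq2 on the recovered reads called Th in this comparison, with a log2 difference of 6.67 and an adjusted p of 0.0238; edgeR's quasi-likelihood test gave an adjusted p of 1. No other of the 10 genes was called in any fit of any comparison. Without vitamin C, Th was at 8.59 times the stem cell level in replicate 2 (3.73 to 24.3), while in replicate 1 both groups had 2 reads and no ratio can be read. Against stem cells the groups without vitamin C overlapped.

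Across all 3 comparisons limma called none of the 10 genes, against 0% of all genes with minus without vitamin C, 0% without vitamin C minus stem cells and 0% with vitamin C minus stem cells. At an unadjusted p under 0.05 limma had 62, 382 and 507 of the 11823 genes in that order, and with the replicates paired in the fit 404, 1550 and 1885. DESeq2 called 6, 65 and 135 genes by adjusted p, and edgeR called 0 in each. With the replicates paired in the fit, DESeq2 called 32 genes with minus without vitamin C, none of them among the 10, and limma and edgeR called 0.

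Ddc, the decarboxylase that follows Th, did not share its pattern. It stood at 3.40, 3.84 and 2.3 CPM in stem cells, without and with vitamin C of replicate 1, and at 22.0, 13.4 and 27.9 CPM in replicate 2. The vitamin C ratio was 0.599 (0.339 to 1.04) in replicate 1 and 2.07 (1.79 to 2.41) in replicate 2, in opposite directions, and the limma difference was 0.20 (SE 1.46, adjusted p 1.000). All 3 libraries of replicate 2 were above all 3 of replicate 1.

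Gch1, which starts synthesis of the cofactor of Th, was near the floor in replicate 1 with 0.252, 0.465 and 0.191 CPM (2, 4 and 2 reads). In replicate 2 it stood at 1.45, 1.77 and 2.67 CPM (22, 33 and 57 reads). Its highest library was that with vitamin C in replicate 2, but the ratio to the library without was 1.51 (0.964 to 2.39), within counting error. In replicate 1 that ratio was 0.411 (0.0372 to 2.87). The other genes of the cofactor pathway gave no shared direction with vitamin C: of 5 tested, 0 were higher and 0 lower in both replicates, with a median log2 difference of -0.06, against 0.02 over all genes. Qdpr, which regenerates the cofactor, stood at 64.8 and 32.9 CPM without vitamin C, against 57.8 and 36.7 CPM with it, above the stem cells at 31.8 and 24.4 CPM. Spr, sepiapterin reductase of the same pathway, stood at 13.7 and 6.98 CPM without vitamin C, against 9.57 and 8.90 CPM with it.

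Slc18a2, the vesicular monoamine transporter, was higher with vitamin C in both replicates beyond counting error. It stood at 2.77, 1.28 and 4.31 CPM in replicate 1 (22, 11 and 45 reads) and at 4.34, 5.05 and 7.73 CPM in replicate 2 (66, 94 and 165 reads). The vitamin C ratios were 3.37 (1.71 to 7.22) and 1.53 (1.18 to 1.99). The limma difference was 1.00 (SE 0.73, adjusted p 1.000), ranked 289 of 11823, and moved between 0.18 and 1.82 when a library was left out. The groups overlapped, because 4.31 CPM with vitamin C in replicate 1 lies under 5.05 CPM without it in replicate 2. Against stem cells the value with vitamin C was 1.55 times (0.913 to 2.71) and 1.78 times (1.33 to 2.41) as high.

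Slc6a3, whose protein is the defining uptake transporter of dopamine neurons, was barely detected. Replicate 1 had 0, 0 and 1 reads and replicate 2 had 3, 20 and 25 reads, or 0.197, 1.07 and 1.17 CPM. In replicate 2 the level was 5.45 times that of the stem cells (1.62 to 28.7) without and 5.94 times (1.81 to 30.7) with vitamin C. The ratio with to without vitamin C there was 1.09 (0.581 to 2.07), and in replicate 1 a difference was not detectable at this depth. Of the other transporters of monoamines, 3 were tested, and 3 of 3 were lower with vitamin C in both replicates, against 26.4% of all genes, with a median log2 difference of -0.67 and 0 past limma; for Slc18a1 in replicate 1 and Slc22a3 in replicate 2 this rests on few reads (14 against 14, and 1 against 7). Slc29a4, a low-affinity monoamine transporter, stood at 70.3 and 17.8 CPM without vitamin C, against 32.4 and 11.6 CPM with it. Slc22a3, another such transporter, stood at 13.8 and 0.376 CPM without vitamin C, against 8.52 and 0.0468 CPM with it. The vesicular gene Slc18a1, the third of them, named to complete the count, stood at 1.63 and 1.45 CPM without vitamin C, against 1.34 and 0.983 CPM with it.

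**Figure D2:**
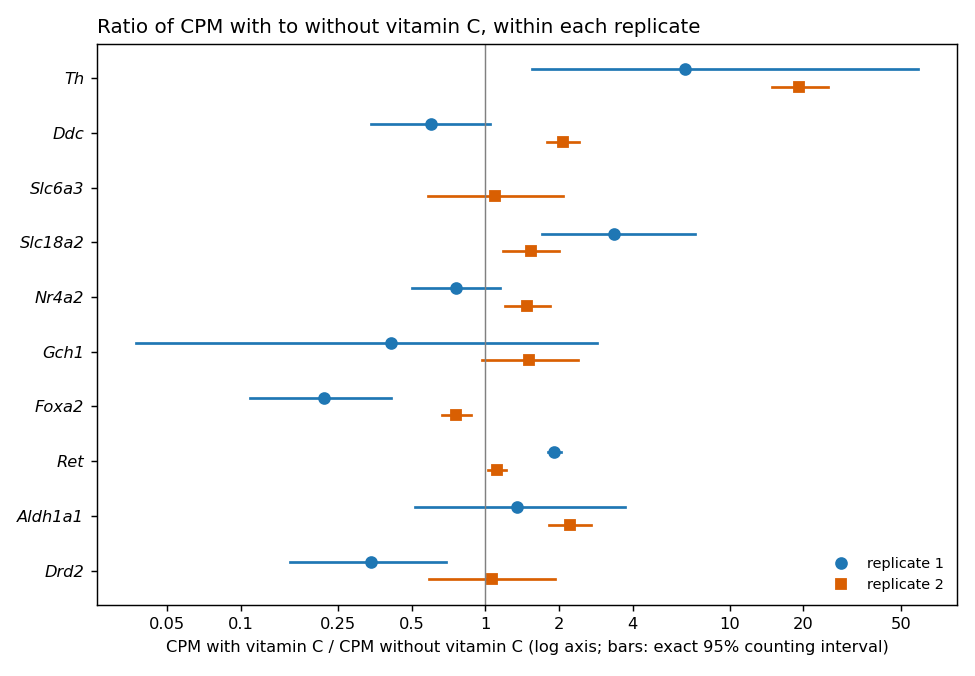
Ratio of CPM with to without vitamin C for the 10 genes within replicate 1 (circles) and replicate 2 (squares), on a log axis, with exact 95% intervals for counting error only; no replicate 1 ratio is drawn for Slc6a3, which had 0 reads without vitamin C. The intervals of Th, Slc18a2 and Ret lie above 1 and those of Foxa2 under 1 in both replicates.

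Over the 10 genes, 5 were higher with vitamin C in both replicates (Th, Slc6a3, Slc18a2, Ret and Aldh1a1), against 30.0% of all genes tested, though Slc6a3 enters by its CPM alone, with 1 read against 0 in replicate 1 and a ratio within counting error in replicate 2. In the other direction 1 was lower in both (Foxa2), against 26.4%. The median log2 difference was 0.18, against 0.02 for all genes, and it was -0.06 in replicate 1 and 0.51 in replicate 2. Groups that did not overlap were found for 0 of the 10 in either direction, against 8.15% of all genes for higher and 7.82% for lower values.

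Foxa2, a forkhead factor needed for midbrain dopamine neurons, was lower with vitamin C than without in both replicates. It stood at 4.67, 5.70 and 1.24 CPM in stem cells, without and with vitamin C of replicate 1 (37, 49 and 13 reads), and at 45.6, 24.1 and 18.4 CPM in replicate 2 (694, 449 and 392 reads). The library with vitamin C was the lowest of its replicate in each case, and the replicates differed more than the groups. The vitamin C ratios were 0.218 (0.109 to 0.409) and 0.761 (0.663 to 0.873), and the limma difference was -1.11 (SE 1.62, adjusted p 1.000). Against stem cells the ratios with vitamin C were 0.267 (0.130 to 0.513) and 0.403 (0.355 to 0.456), and the limma difference was -1.43. Foxa2 was the one of the 10 at least 2-fold lower than stem cells in both replicates with vitamin C, against 2.59% of all genes. Th was the one at least 2-fold higher, against 2.93%.

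Nr4a2, the nuclear receptor that drives Th and Slc18a2 in midbrain neurons, gave vitamin C differences of opposite sign in the replicates. It stood at 4.04, 5.93 and 4.50 CPM in replicate 1, then at 6.11, 7.52 and 11.1 CPM in replicate 2. The groups with and without vitamin C overlapped, with a ratio of 0.758 (0.499 to 1.15) in replicate 1 and 1.48 (1.2 to 1.84) in replicate 2. Its limma difference was 0.09 (SE 0.57, adjusted p 1.000). Its ratio with vitamin C to stem cells was 1.11 (0.696 to 1.80) and 1.82 (1.43 to 2.34). Nr4a2 is also an immediate early gene, and its relatives Nr4a1 and Nr4a3 were looked at after their values were seen. Nr4a1 stood at 37.8 and 6.82 CPM without vitamin C, against 15.7 and 11.5 CPM with it, and Nr4a3 at 7.44 and 18.7 CPM without vitamin C, against 2.11 and 19.2 CPM with it. The log2 differences with vitamin C in replicates 1 and 2 were -0.36 and 0.54 for Nr4a2 and -1.24 and 0.71 for Nr4a1. For Nr4a3 they were -1.61 and 0.03, the latter close to no difference. Over 16 immediate early genes, 0 were higher and 6 lower with vitamin C in both replicates, against 30.0% and 26.4% of all genes, and the summed level was 448 and 379 CPM without vitamin C, against 201 and 382 CPM with it. Their part in the Nr4a2 values was not tested.

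The wider midbrain lineage list was lower with vitamin C for most members, as Foxa2 was. Of 20 tested, 13 were lower and 1 higher in both replicates, where 26.4% and 30.0% of all genes were, and 0 passed limma. The median log2 difference was -0.46 (-0.54 in replicate 1 and -0.32 in replicate 2), against 0.02 over all genes. Other lists were lower too: 8 of 12 fibroblast and meningeal genes (median -0.56) and 10 of 16 pan-neuronal genes (median -0.31) were so in both replicates. Shh, the signal that patterns the ventral midbrain, stood at 2.21 and 11.1 CPM without vitamin C, against 0.765 and 4.54 CPM with it, which is -1.10 and -1.2 in log2, and at 2.90 and 117 CPM in stem cells. Wnt5a, a Wnt ligand, was the 1 gene higher in both, at 37.7 and 98.2 CPM without vitamin C, against 48.7 and 111 CPM with it. Foxa1, the close relative of Foxa2, and the LIM homeobox genes Lmx1a and Lmx1b were picked after their values were seen. Foxa1 stood at 11.4 and 54.5 CPM without vitamin C, against 3.25 and 41.4 CPM with it, Lmx1a at 4.30 and 21.4 CPM against 1.24 and 19.2 CPM, and Lmx1b at 2.09 and 14.6 CPM against 0.574 and 9.18 CPM. The midbrain genes Pitx3 and En1 had no row under those symbols and so were not analysed here.

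**Figure D3:**
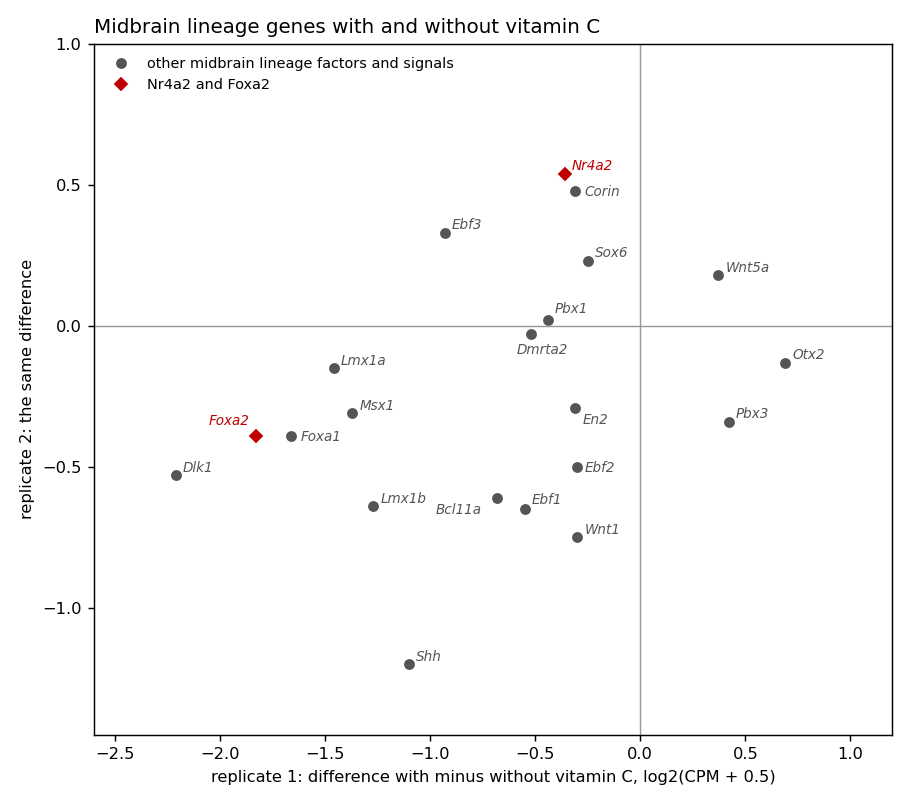
Difference with minus without vitamin C in log2(CPM + 0.5), replicate 1 on the x axis and replicate 2 on the y axis, for Nr4a2 and Foxa2 (diamonds) and other midbrain lineage genes tested (circles); 1 gene of the list is not drawn. Most circles lie in the lower left, where both replicates are lower with vitamin C, and of the circles drawn Wnt5a alone lies in the upper right.

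Ret, the receptor kinase through which the GDNF family acts, was higher with than without vitamin C in both replicates but differed from the stem cells in opposite directions. It stood at 47.2, 190 and 364 CPM in stem cells, without and with vitamin C of replicate 1, and at 145, 48.8 and 54.2 CPM in replicate 2. The vitamin C ratios were 1.91 (1.81 to 2.03) and 1.11 (1.02 to 1.21), with a limma difference of 0.54 (SE 1.18, adjusted p 1.000). Without vitamin C the ratio to stem cells was 4.03 (3.60 to 4.52) in replicate 1 and 0.336 (0.311 to 0.363) in replicate 2, and with it 7.72 (6.94 to 8.60) and 0.373 (0.347 to 0.401). Summed oligodendrocyte lineage genes also differed between the replicates, at 2326, 13366 and 9695 CPM in replicate 1 and 831, 1219 and 956 CPM in replicate 2. Their part in the Ret values was not tested. The summed levels were lower with vitamin C than without in both replicates. Gene by gene, 5 of the 13 were higher and 8 lower with vitamin C in both, against 30.0% and 26.4% of all genes.

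Of 8 other genes of neurotrophic support tested, 2 were higher and 3 lower with vitamin C in both replicates, shares near the 30.0% and 26.4% of all genes, with a median log2 difference of 0.01 and 0 past limma. Ntrk2, the receptor of BDNF, which astrocytes also express in a truncated form, stood at 577 and 546 CPM without vitamin C, against 892 and 760 CPM with it, without overlap. Manf, a secreted trophic factor of the endoplasmic reticulum, stood at 44.8 and 61.3 CPM without vitamin C, against 57.8 and 64.7 CPM with it. Bdnf and Gfra1, a co-receptor that works with Ret, were picked after their values were seen. Bdnf stood at 1.74 and 1.45 CPM without vitamin C, against 0.478 and 0.468 CPM with it, and Gfra1 at 9.77 and 12.7 CPM without vitamin C, against 7.46 and 9.60 CPM with it.

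Aldh1a1, which oxidises the aldehyde of dopamine and makes retinoic acid in a subset of midbrain neurons, was at its lowest without vitamin C in both replicates. It stood at 2.65, 0.930 and 1.24 CPM in replicate 1 (21, 8 and 13 reads) and at 12.4, 7.95 and 17.6 CPM in replicate 2 (189, 148 and 375 reads). The vitamin C ratio was 1.34 (0.514 to 3.72) in replicate 1, within counting error, and 2.21 (1.82 to 2.69) in replicate 2, and the limma difference was 0.69 (SE 1.53, adjusted p 1.000). Each library of replicate 2 lay above all 3 of replicate 1. Fibroblast and meningeal genes, 12 in number, were higher in replicate 2 for 12 of 12 in each group, and their summed level was lower with vitamin C in both replicates, at 237 and 5684 CPM without vitamin C, against 160 and 3710 CPM with it. Their part in the Aldh1a1 values was not tested.

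Of 10 other genes of catecholamine breakdown and conversion tested, 3 were higher and 2 lower with vitamin C in both replicates, shares near the 30.0% and 26.4% of all genes, with a median log2 difference of -0.02 and 0 past limma. Aldh2, the mitochondrial aldehyde dehydrogenase, stood at 66.7 and 266 CPM without vitamin C, against 45.5 and 300 CPM with it. Aldh7a1, another aldehyde dehydrogenase, stood at 83.6 and 82.3 CPM without vitamin C, against 85.3 and 101 CPM with it. Maob, the monoamine oxidase found in astrocytes, was picked after its values were seen. It started from 2.4 and 5.26 CPM in the stem cells and reached 16.4 and 45.1 CPM without vitamin C, against 33.7 and 66.8 CPM with it. The summed level of 13 astrocyte genes was 3281 and 8223 CPM without vitamin C, against 9890 and 14122 CPM with it, and their part in the Maob values was not tested. Dbh, the vitamin C-dependent enzyme that turns dopamine into noradrenaline, was also picked after its values were seen and missed the filter on low values: it had 1, 1 and 0 reads in replicate 1, 0 in the stem cells of replicate 2, and there 0.484 CPM (9 reads) without and 3.23 CPM (69 reads) with vitamin C.

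Drd2, the dopamine receptor that also serves as the neuron's own brake on release, was higher after differentiation without vitamin C. It stood at 0.883, 3.37 and 1.15 CPM in replicate 1 (7, 29 and 12 reads) and at 0.394, 1.24 and 1.31 CPM in replicate 2 (6, 23 and 28 reads). Both libraries without vitamin C lay above both stem cell libraries, with ratios of 3.82 (1.64 to 10.3) and 3.13 (1.24 to 9.41) and a limma difference of 1.22 (SE 0.70, adjusted p 1.000), which moved between 0.64 and 1.80 when a library was left out. With vitamin C the ratio to the library without was 0.341 (0.158 to 0.688) in replicate 1 and 1.06 (0.589 to 1.93) in replicate 2, and the limma difference was -0.59 (SE 0.70, adjusted p 1.000), between -1.16 and -0.01 with a library left out.

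Of 6 other genes of dopamine receptors and their signalling tested, all 6 exceeded their stem cell level in both replicates after differentiation without vitamin C, against 28.6% of all genes, with a median log2 difference of 0.96 against 0.01 for all genes and 0 past limma. With vitamin C 5 of the 6 exceeded it, with a median of 0.96 as well. With minus without vitamin C, 2 were higher and 3 lower in both, with a median of -0.21. Adcy5, the adenylyl cyclase of striatal dopamine signalling, started from 22.8 and 59.3 CPM in the stem cells and reached 59.1 and 92.8 CPM without vitamin C, against 57.5 and 73.6 CPM with it. The receptor genes Drd1, Drd3 and Drd5 had no row under those symbols and so were not analysed here.

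**Figure D4:**
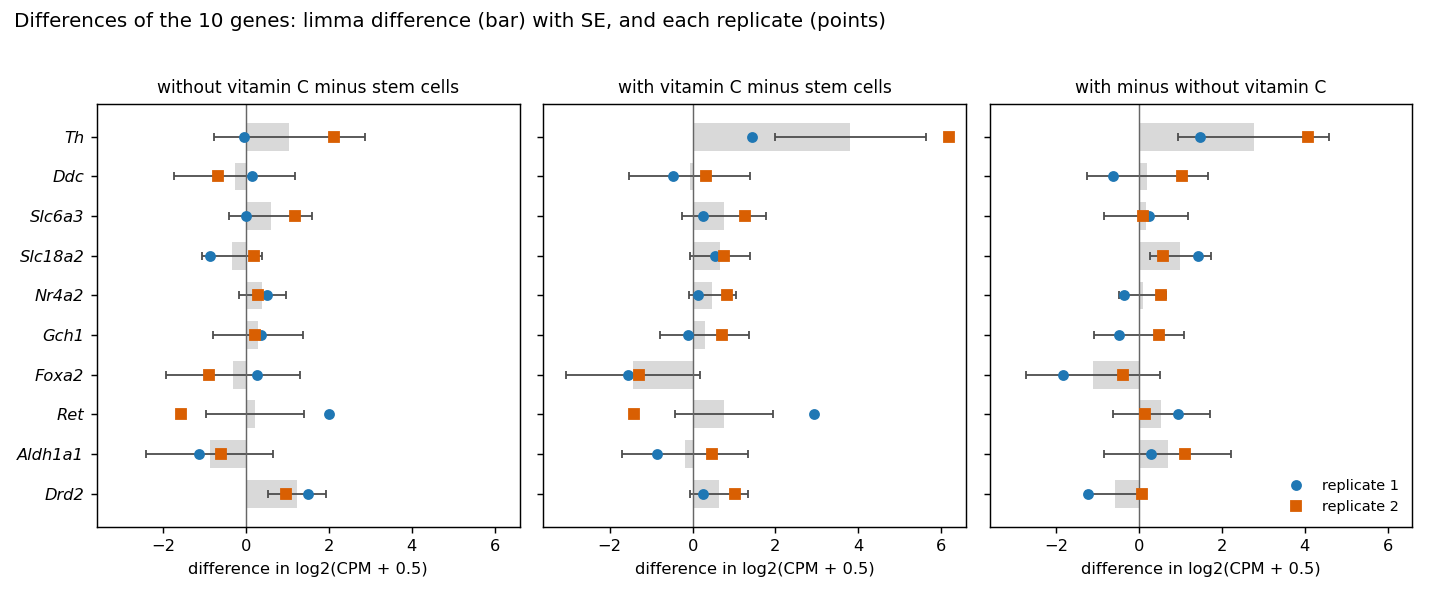
Differences in log2(CPM + 0.5) of the 10 genes in the 3 comparisons: grey bars are limma differences with the SE as whiskers, and circles and squares are replicates 1 and 2. Th has the longest bar with vitamin C against stem cells (3.81) and against cells without (2.77), and for Ret the replicates lie on opposite sides of 0 in both comparisons with stem cells.

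Both comparisons with stem cells share the stem cell libraries. Without vitamin C, 3 of the 10 genes were higher than stem cells in both replicates (Nr4a2, Gch1 and Drd2), against 28.6% of all genes, and 1 was lower (Aldh1a1), against 29.5%. The counting intervals of Nr4a2 and Gch1 included 1 in both replicates. Groups did not overlap for 1 gene, Drd2, on the higher side, against 13.8%, and for 0 on the lower side, against 13.2%. With vitamin C, 5 were higher in both (Th, Slc6a3, Slc18a2, Nr4a2 and Drd2), against 28.6%, and 1 was lower (Foxa2), against 29.0%. Slc6a3 enters this count on 1 read against 0 in replicate 1. The replicate 1 intervals of Slc18a2, Nr4a2 and Drd2 included 1. Groups did not overlap for 2, Th and Drd2, on the higher side, against 14.2%, and for 0 on the lower side, against 13.2%. The median log2 differences of the 10 were 0.25 and 0.56, against 0.01 and 0.01 over all genes.

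Genes whose levels followed Th most closely were sought by Pearson's r of log2(CPM + 0.5) over the 6 libraries, a description that shares the replicate and depth differences. The 5 of highest r were RGD1306739 (0.993), Atp2c2 (0.992), Ccdc60 (0.992), Ccdc81 (0.987) and Kcnk16 (0.985). Each had its highest value with vitamin C in replicate 2, as Th did. RGD1306739 stood at 0.252, 0.116 and 1.72 CPM in replicate 1 and 0.460, 6.29 and 75.3 CPM in replicate 2. Kcnk16, a potassium channel gene, stood at 0, 0 and 0.287 CPM and at 0.0657, 2.42 and 17.6 CPM. An r of at least 0.95 was found for 58 of 11822 other genes tested. None of the other 9 dopamine genes was among them: r with Th was 0.844 for Nr4a2, 0.843 for Slc6a3, 0.775 for Slc18a2, 0.707 for Gch1, 0.624 for Aldh1a1, 0.599 for Ddc, 0.254 for Foxa2, 0.029 for Drd2 and -0.386 for Ret.

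**Figure D5:**
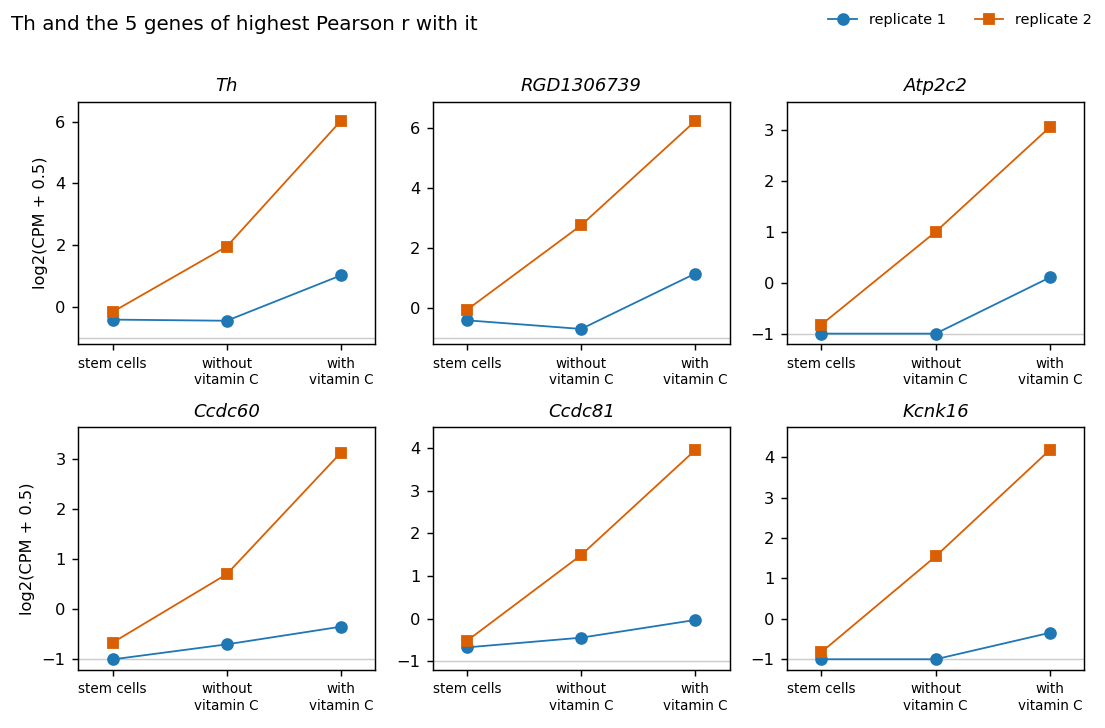
Th and the 5 genes of highest Pearson r with it over 6 libraries, as log2(CPM + 0.5) in stem cells, without and with vitamin C, with a line joining the libraries of a replicate and grey lines at 0 CPM; each panel has its own scale. All 6 genes are highest with vitamin C in replicate 2, and in replicate 1 they stay under 2 CPM.

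Markers of other cell types, some of which express Th, gave the following levels. Of the noradrenergic and sympathetic list, 5 of 11 had a row, and they summed to 15.6, 18.7 and 12.3 CPM in replicate 1 and 76.9, 71.2 and 69.7 CPM in replicate 2, mostly from Chgb at 7.37 to 58.3 CPM, with Chga at 1.51 to 13.4 CPM; both are granins of secretory vesicles. These granins were lower with than without vitamin C in both replicates. Dbh of the same list, given above, adds little to the sum and did not follow it in replicate 2. It stood there at 0, 0.484 and 3.23 CPM (0, 9 and 69 reads), with 1, 1 and 0 reads in replicate 1. Phox2a and Hand2, which mark noradrenergic and sympathetic neurons, had no row under those symbols and so were not analysed here. Of the serotonergic list, 4 of 7 had a row and summed to 1.15 to 11.9 CPM, with Gata2 at 0.765 to 8.48 CPM and the serotonin transporter gene Slc6a4 at 0.191 to 1.87 CPM. Of 8 genes of forebrain and olfactory bulb dopamine cells, 0 were higher and 3 lower with vitamin C in both replicates, against 30.0% and 26.4% of all genes, and they summed to 288 to 341 CPM in replicate 1 and 111 to 141 CPM in replicate 2. Nr2f1, an orphan receptor of that list, stood at 130 and 47.5 CPM without vitamin C, against 157 and 45.8 CPM with it, and the ETS factor Etv1 at 86.4 and 38.8 CPM without vitamin C, against 38.3 and 36.8 CPM with it. Of 16 pan-neuronal genes, 1 was higher and 10 lower with vitamin C in both replicates, against 30.0% and 26.4% of all genes, and the summed level was 927 and 667 CPM without vitamin C, against 680 and 659 CPM with it. Endothelial genes, 9 with a row, summed to 5.46 and 34.7 CPM without vitamin C, against 8.23 and 59.1 CPM with it; without vitamin C 5 of the 9 were at 0 in replicate 1 and 0 in replicate 2, and with it 6 and 0. Of the 8 endothelial genes tested 2 were higher and 2 lower with vitamin C in both replicates, and the higher sum of replicate 1 lies in Vwf, a clotting factor gene picked for this after its values were seen (1.05 CPM without and 4.69 CPM with vitamin C). The astrocyte sums given beside Maob were higher with vitamin C in both replicates. The part of any of these cells in the Th values was not tested.

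The nearest genes on either side of Th that have a row are Igf2 and Ascl2, by the order of the RefSeq annotation of GRCr8. Igf2, a growth factor gene, stood at 4.79, 16.5 and 4.69 CPM in replicate 1, then at 61.2, 876 and 635 CPM in replicate 2, lower with than without vitamin C in both. Ascl2, a basic helix-loop-helix factor gene, stood at 0.504, 0.116 and 1.63 CPM and at 0.591, 1.56 and 2.34 CPM, higher with vitamin C in both.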

How the data were processed

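RNA-seq libraries were made with a TruSeq kit, per the labels' protocols. The authors deposited 1 table of CPM values with a row per gene. The submitters' processing notes name the rn5 build, Bowtie2 2.1.0, STAR 2.5.1, CASAVA 1.7, edgeR 3.12.1, deepTools 2.4.2 and HOMER 4.9.1, with no role for each; the counter, annotation and use of strand are not given in the sources used here. Every value was a whole multiple of 1 read (relative tolerance 1e-06; 100% of values), so whole reads were recovered; the genes listed hold 60.2% to 67.7% of the reads used for scaling.

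The test covered the 11823 genes that reached 1 CPM in 2 or more libraries, all 10 members among them, and used limma 3.58.1 (trend, two-sided, R 4.3.3) on log2(CPM + 0.5), 3 groups in 1 fit with 3 residual degrees of freedom, and Benjamini-Hochberg adjustment over all genes at 0.05. An exact permutation test of 2 against 2 cannot go below p 0.333 and was not used. Ratios within a replicate have exact 95% intervals that cover counting error only. Each replicate number of the differentiated cells goes with 1 day label in both groups, and their deviations from the group means correlated at 0.914 across genes, so a fit that pairs them is given beside a result where it changes a call or a count of calls; for stem cells only the number is shared. Alternatives were other pseudocounts, filters and scaling, a replicate block, 2-group fits, the count tests of DESeq2 1.42.0 and edgeR 4.0.16 run on recovered reads, and each library left out. The code was tested on simulated data.

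The members and lists were chosen with earlier results of these data known. Genes named from a list of dopamine biology are the 2 of highest mean CPM and those at least 2-fold apart with and without vitamin C in both replicates (at least 5 CPM in 1 library); lists of other cell types are given as sums; others are said to be chosen after their values were seen. Some genes that this rule names are not reported here.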

Additional observations from a re-analysis of the deposited data

How the results depend on the processing

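The 10 genes' differences kept their direction and side of the threshold in 309 of 318 values under settings other than a left-out library: a pseudocount of 0.1 or of 2, the filter dropped or raised to 5 CPM, rescaling by median of ratios, 2-group fits, a replicate block, and edgeR and DESeq2 with and without that block. The 309 include values of Slc6a3, Gch1 and Drd2 against stem cells for which DESeq2 gave no adjusted p, taken as not called. They also include Gch1 with minus without vitamin C, at 0.00 in the main fit, whatever its sign. The limma fits with another filter, a replicate block or 2 groups return the main fit's differences by construction, so no direction could turn in them. Th against stem cells with vitamin C passed DESeq2 (6.67, adjusted p 0.0238) and DESeq2 with the replicate block (5.58, adjusted p 8.12e-05), so 1 of the 10 genes was called in each. Under the 5 CPM filter Th, Slc6a3, Gch1 and Drd2 were not tested. Over the alternatives outside DESeq2 its adjusted p ranged from 0.101 (edgeR with the block) to 1. The replicate numbers shared with the stem cells also correlated (0.730 without and 0.688 with vitamin C). DESeq2 called 6, 65 and 135 genes with minus without vitamin C, without minus stem cells and with minus stem cells, and 32, 458 and 761 with the replicate block, against 0 in the limma fit; the cause was not tested. The block changed no other call of the 10 genes. For Th with minus without vitamin C it gave 2.77 (SE 1.13, adjusted p 1) in limma and 3.71 (adjusted p 0.0828) in DESeq2. In limma the block lowered the SE of this difference for each of the 10 genes. It went from 1.62 to 0.42 for Foxa2, from 1.46 to 0.45 for Ddc and from 1.18 to 1.06 for Ret.

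Directions turned 7 times outside left-out libraries, all in values near 0 whose cause was not tested. This count leaves out Gch1 with minus without vitamin C, which was 0.00 in the main fit. It was -0.20 with a pseudocount of 0.1, -0.11 in DESeq2 with the block and 0.34 in edgeR. Ret without vitamin C minus stem cells was -0.30 in edgeR and -0.33 in DESeq2 with the block. With vitamin C minus stem cells, Ddc was 0.27 in edgeR, 0.25 in DESeq2 and 0.03 in edgeR with the block, and Aldh1a1 was 0.34 in edgeR and 0.32 in DESeq2.

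With 1 library left out, the remaining one is taken to scatter as the other groups do, and the replicate difference enters the comparison. A library of the group outside a comparison does not enter its difference, so leaving it out could turn no value. Of 180 values, 35 turned. Gch1 with minus without vitamin C was 0.00 in the main fit and was never counted as turned, though it ranged from -1.10 to 1.10. With minus without vitamin C the ranges were -1.47 to 1.87 for Ddc, -0.66 to 1.00 for Slc6a3, -0.52 to 0.70 for Nr4a2, -2.82 to 0.61 for Foxa2, -0.83 to 1.91 for Ret and -1.0 to 2.38 for Aldh1a1. Without vitamin C minus stem cells they were -0.16 to 2.24 for Th, -1.53 to 0.99 for Ddc, -0.24 to 1.42 for Slc6a3, -1.16 to 0.48 for Slc18a2, -0.39 to 0.98 for Gch1, -1.90 to 1.26 for Foxa2, -0.76 to 1.19 for Ret and -2.16 to 0.41 for Aldh1a1. With vitamin C minus stem cells they were -1.75 to 1.60 for Ddc, -0.13 to 1.09 for Nr4a2, -0.81 to 1.39 for Gch1, -3.15 to 0.29 for Foxa2, -0.61 to 2.13 for Ret and -1.87 to 1.5 for Aldh1a1. The median over the 10 genes ranged from -0.61 to 1.01, -0.49 to 0.94 and -0.06 to 1.24 in the 3 comparisons.

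With the 250 bases before the start alone, the shares of all promoters fell because the window was shorter, to 1.24% for AAAGGTCA, 1.59% for TGACGTCA, 18.2% for TGACG, 12% for TTGGCA, 16.6% for ACGTG, 6.34% for TGANTCA, 12.9% for TATAAA, 18.3% for TGTTTNC and 65.5% for CANNTG. Depth limits Th, Slc6a3 and Gch1 in replicate 1, where they had 0 to 4 reads in most libraries.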
